A study of Mus musculus with 9 samples.

Results

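The growth hormone and IGF axis was followed here through 10 listed genes in mouse liver, all of which had a value among the 19938 genes named by a single symbol in the array annotation. They are the receptor gene Ghr, its signal transducer Stat5b, the secreted products Igf1 and Igfals, the feedback inhibitors Socs2 and Cish, and the IGF-binding proteins Igfbp1, Igfbp2, Igfbp3 and Igfbp4. The brightest probe set stood for each gene. Only Socs2 had a choice of probe sets, 2 in number, and both are given below because they differ in where they lie. Probe set numbers of this array run along the chromosomes. Of the 16 named probe sets nearest in number to the brighter Socs2 probe set, 0 belonged to chromosome 10, where Socs2 lies (GRCm38.p6), and 15 to chromosome 12. For the dimmer one 15 of 16 belonged to chromosome 10, and each of the other members had at least 15 of 16 on the chromosome of its gene. Which transcript the brighter probe set reads was not tested, and the main Socs2 comparisons are given for both.

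Liver RNA came from male C57Bl/6J mice that all received a low fat-normal protein (LF-NP) run-in diet with 10% of the energy from fat and 15% from protein. Mice of the reference pool were killed directly after it (week 0, age 12 weeks on the label). The other mice stayed on LF-NP or changed to HF-NP (35% fat, 15% protein), LF-HP (10% fat, 50% protein) or HF-HP (35% fat, 50% protein) for 1 or 12 weeks (labelled ages 13 and 22 weeks). The label of 22 weeks is less than 12 weeks on the diets after the reference age would give. All mice were killed shortly after a calibrated meal, and each of the 9 arrays carried pooled RNA of 5 mice, so that the spread between mice cannot be seen. High protein pools also had less carbohydrate than normal protein pools of the same fat level.

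In the textbook scheme, growth hormone from the pituitary binds its receptor on hepatocytes and activates the kinase JAK2, which phosphorylates STAT5B. STAT5B then drives transcription of Igf1 and Igfals, whose products circulate together with IGFBP3 in a ternary complex, and of Socs2 and Cish, whose products damp the same receptor. Igfbp1 stands apart, since insulin suppresses it and fasting raises it within hours.

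Promoter sequence is shown for the members whose upstream window held a searched motif, taken from RefSeq (GRCm38.p6). A window was given for 9 of the 10 members, and Socs2 had no entry. The 250 bases before each annotated start were searched on both strands for CAAAACA and TATTTTG, the facing arms of the insulin response element of Igfbp1, and for TTCNNNGAA, the palindrome bound by STAT5. The first is shown because Igfbp1 varied most among the members. Its 250 bases lie at chr11:7197537-7197786 on the plus strand, immediately before the annotated start, and the arms are in capitals.

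Igfbp1: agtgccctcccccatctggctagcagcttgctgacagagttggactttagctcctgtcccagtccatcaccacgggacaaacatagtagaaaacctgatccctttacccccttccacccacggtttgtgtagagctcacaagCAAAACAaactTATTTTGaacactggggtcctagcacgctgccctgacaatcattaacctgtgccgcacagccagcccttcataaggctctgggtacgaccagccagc

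The CAAAACA arm begins 108 bases and the TATTTTG arm 97 bases before the start. CAAAACA occurred in 5.56% and TATTTTG in 3.95% of the 32851 windows of the same length, and both starting within 15 bases of each other, in this order, in 0.0396%. Igfals was the only member with TTCNNNGAA, which occurred in 7.02% of all windows, and it held a match in 2 of its windows. Those stretches are shown with the match in capitals, at chr17:24877598-24877627 and chr17:24878163-24878192 on the plus strand, before different annotated starts.

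Igfals upstream window: gatctataatTTCTCAGAAaagaggctgag
Igfals downstream window: ctgccaggtgTTCCTAGAAgaggccctggg

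A match is a run of letters and not a measured site, and these arrays hold no binding data.

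The values are robust multiarray analysis (RMA) signals on a log2 scale, on which a difference of 1 is a doubling. Medians of the arrays over all genes differed by at most 0.064. All 6 hepatocyte markers checked lay above the median signal of all genes, and their summed linear signal ran from 62982 to 68092 in HP and from 62345 to 66296 in NP pools. The study asked what dietary protein does to hepatic gene expression whatever the background diet and duration, so the main comparison sets the 4 HP against the 4 NP pools, with fat level and week as further terms of a limma fit over the 8 diet pools. Its spread is that between pools of different diet and week, with 4 residual degrees of freedom.

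None of the 10 members passed between HP and NP pools at an adjusted p under 0.05 (limma, smallest adjusted p = 0.333), where 0.441% of all genes did. Stat5b alone had an unadjusted p under 0.05, against 10.3% of all genes. HP minus NP differences were positive for 7 members and negative for 3, and their median was 0.08 (log2), against -0.00 over all genes. The median size of the difference, sign left aside, was 0.135 among the members and 0.065 among all genes.

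The members fell into quiet and variable genes over the 9 pools. Igfbp4, Igf1 and Ghr spanned 0.12, 0.23 and 0.26 on the log2 scale between their lowest and highest pool, less than the 0.38 that was the median span of all genes. Their signals lay at percentiles 99.4, 98.9 and 99.1 of all genes, and the part of the signal level in their spans was not tested. Igfbp3, Stat5b and Igfals spanned 0.36, 0.37 and 0.37, close to the median span of 0.38. Igfbp1, Socs2 and Cish spanned 2.46, 2.06 and 1.67, which are 5.49-fold, 4.18-fold and 3.17-fold in linear signal and placed them above 99% of all genes. The dimmer Socs2 probe set spanned 0.90, and Igfbp2 lay between with 0.81.

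**Figure D1:**
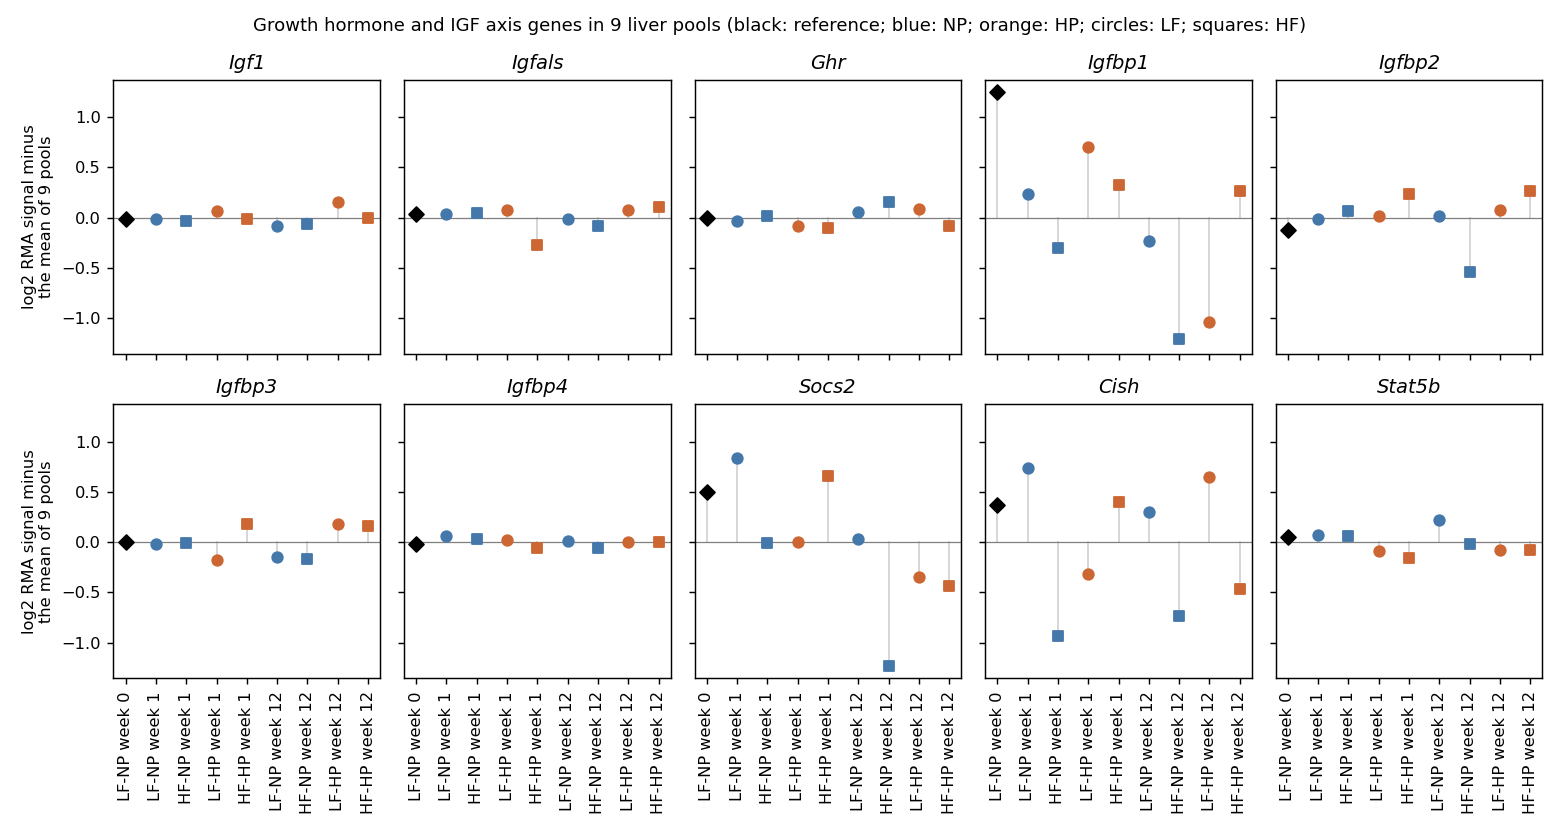
Log2 RMA signal of each of the 10 members in the 9 pools, as the difference from that gene's mean over the pools (vertical axis), with the pools along the horizontal axis. Points of Igf1, Ghr and Igfbp4 stay near 0, whereas Igfbp1, Socs2 and Cish spread over 2.46, 2.06 and 1.67.

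Ghr, the growth hormone receptor, read 11.95 in the reference pool. In the NP pools it was 11.91 (LF, 1 week), 11.96 (HF, 1 week), 12.00 (LF, 12 weeks) and 12.10 (HF, 12 weeks), and in the HP pools 11.86, 11.85, 12.04 and 11.86 in the same order. HP and NP pools overlapped through the LF-HP pool of 12 weeks. The difference was -0.09 (standard error 0.06, 95% interval -0.24 to 0.05, adjusted p = 0.713). All 4 comparisons of 12 weeks with 1 week on the same diet were positive, from 0.02 to 0.17, with an estimate of 0.11 (adjusted p = 0.703).

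Stat5b, the transcription factor that carries the signal to the nucleus, was the only member whose HP and NP pools did not overlap, a state that 4.79% of all genes shared. Its NP pools read 8.55 (LF, 1 week), 8.54 (HF, 1 week), 8.69 (LF, 12 weeks) and 8.46 (HF, 12 weeks), and its HP pools 8.39, 8.32, 8.40 and 8.40. The reference pool, at 8.53, lay among the NP pools. HP pools had a mean of 8.38 ± 0.04 and NP pools one of 8.56 ± 0.10 (SD, n = 4 pools each). The difference was -0.18 (standard error 0.06, 95% interval -0.32 to -0.04, adjusted p = 0.333), negative in 4 of 4 matched comparisons. Its near-identical paralogue and neighbour, Stat5a, differed by -0.25 (standard error 0.07, adjusted p = 0.235), and array probes may not fully separate the 2 genes. Lymphocyte markers, of which 3 of 4 listed had a value and 1 lay above the median signal of all genes, were also lower in HP pools, with a summed linear signal of 87.4 to 109 against 111 to 139 in NP pools and 95.8 in the reference pool. The sums of the other marker lists overlapped between HP and NP pools, for Kupffer cells at 1342 to 2357 against 1723 to 2474. The part of the lymphocyte markers in the Stat5b values was not tested, and in whole liver fewer cells of a type and less RNA per cell cannot be told apart.

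Igf1, the circulating growth factor made largely by the liver, was nearly level. The 4 NP pools read 11.80 (LF, 1 week), 11.78 (HF, 1 week), 11.73 (LF, 12 weeks) and 11.75 (HF, 12 weeks), and the HP pools 11.88, 11.80, 11.96 and 11.81. The LF-HP pools were the highest at both times. The groups met at the HF-HP pool of 1 week, whose value was identical to 6 decimals to those of the LF-NP pools of weeks 0 and 1. Ties of this kind, in 3 or more pools, occurred in 39.1% of all genes. HP minus NP was 0.10 (standard error 0.06, 95% interval -0.03 to 0.23, adjusted p = 0.657), positive in 4 of 4 matched comparisons. On LF diets it was 0.09 at 1 week and 0.23 at 12 weeks, and on HF diets 0.02 and 0.06.

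Igfals encodes the acid-labile subunit that holds IGF1 and IGFBP3 in the circulation. Its HP minus NP difference was 0.00 (standard error 0.09, 95% interval -0.21 to 0.21, adjusted p = 0.999). The HF-HP pool of 1 week stood at 9.02, and the other 8 pools lay between 9.21 and 9.40. Without that pool the difference was 0.10.

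**Figure D2:**
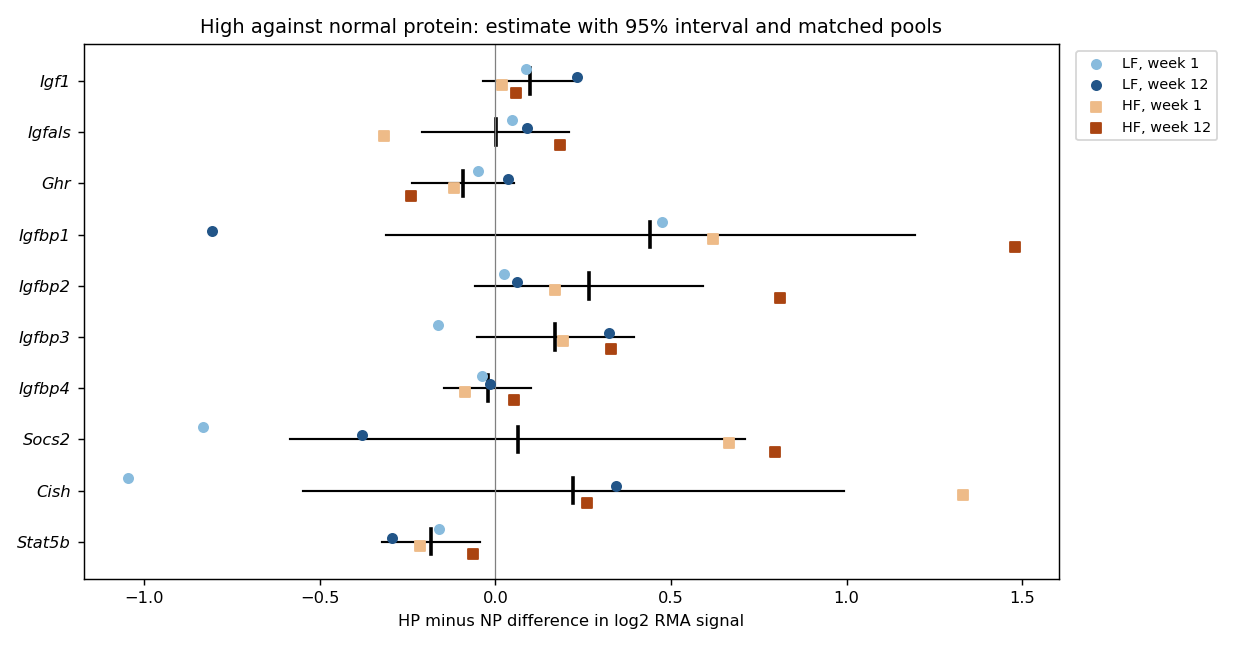
The 10 members by their HP minus NP difference (horizontal axis, log2 RMA signal). Vertical bars are the limma estimates over the 8 diet pools, horizontal lines their 95% intervals, and points the 4 differences between HP and NP pools matched for fat and week. Stat5b is the only member whose interval, from -0.32 to -0.04, leaves out 0, and Socs2, shown for its brighter probe set, has LF points below and HF points above 0.

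Socs2, a suppressor of cytokine signalling that limits the response to growth hormone, had HP minus NP differences of opposite sign on LF and HF diets. By the brighter probe set, on LF diets it went from 9.30 in the NP to 8.47 in the HP pool at 1 week and from 8.49 to 8.11 at 12 weeks. On HF diets it went from 8.46 to 9.12 at 1 week and from 7.23 to 8.03 at 12 weeks. The matched differences were thus -0.83 and -0.38 on LF and 0.67 and 0.80 on HF diets, and they cancelled in the overall estimate of 0.06 (standard error 0.28, 95% interval -0.58 to 0.71, adjusted p = 0.971). The protein by fat interaction, which is the HP minus NP difference on HF minus that on LF diets, was 1.34 (standard error 0.28, 95% interval 0.67 to 2.01, unadjusted p = 0.00236 and adjusted p = 0.547 by limma). No gene on the array passed for this interaction, and 7.02% of all genes had an unadjusted p under 0.05 for it. With 1 pool left out it ran from 0.99 to 1.68 by this probe set.

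The dimmer probe set, whose neighbours lie with Socs2 on chromosome 10, gave the same signs in all 4 matched comparisons at a smaller size. It went from 7.25 to 6.60 and from 6.66 to 6.35 on LF diets at 1 and 12 weeks, and from 6.64 to 6.96 and from 6.36 to 6.44 on HF diets. Its interaction was 0.68 (adjusted p = 0.591), and its overall HP minus NP difference was -0.14, opposite in sign to that of the brighter probe set and likewise far from the threshold.

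Cish, a close relative of Socs2 and an early target of STAT5, varied without following protein. Its NP pools read 8.08 (LF, 1 week), 6.42 (HF, 1 week), 7.65 (LF, 12 weeks) and 6.62 (HF, 12 weeks), and its HP pools 7.04, 7.75, 7.99 and 6.88. The HP minus NP difference was 0.22 (standard error 0.33, 95% interval -0.55 to 0.99, adjusted p = 0.889), made up of -1.05 at 1 week and 0.34 at 12 weeks on LF diets and of 1.33 and 0.26 on HF diets. At 1 week the signs on LF and HF diets were those of Socs2, and at 12 weeks the LF comparison had the other sign. The protein by fat interaction was 1.15 (standard error 0.54, adjusted p = 0.719). Leaving out the LF-HP or the HF-HP pool of 1 week gave 0.49 and 0.59, and leaving out LF-HP at 12 weeks gave 1.81. Between HF and LF pools Cish differed by -0.78 (standard error 0.33, 95% interval -1.55 to -0.01, adjusted p = 0.999), and 3 of 4 matched comparisons were negative, the exception being the HP pools of 1 week at 0.71. It was the only member with an unadjusted p under 0.05 there, against 3.33% of all genes.

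**Figure D3:**
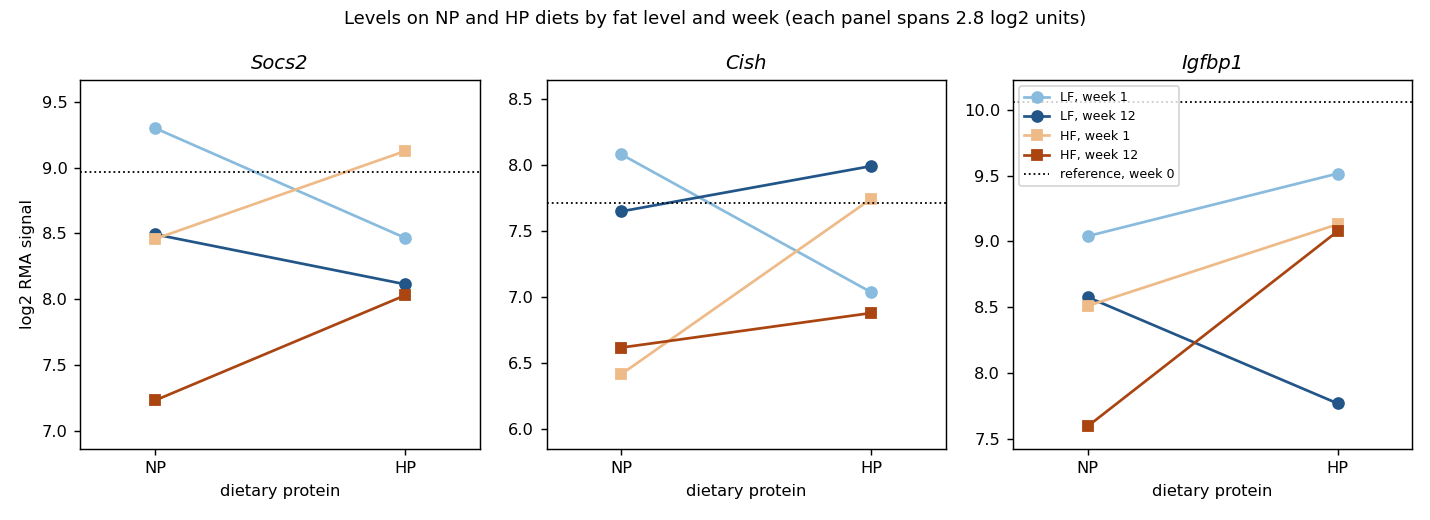
Log2 RMA signal (vertical axis, 2.8 units in each panel) of Socs2 (brighter probe set), Cish and Igfbp1 on NP and HP diets, with 1 line for each fat level and week and a dotted line for the reference pool. For Socs2 both LF lines slope down from NP to HP and both HF lines slope up. For Igfbp1 every diet pool lies below the reference value of 10.06.

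Igfbp1, the insulin-repressed binding protein whose upstream sequence is given above, was highest in the reference pool at 10.06. The 1 week pools read 9.04 (LF-NP), 8.51 (HF-NP), 9.51 (LF-HP) and 9.13 (HF-HP), and the 12 week pools 8.58, 7.60, 7.77 and 9.08. At 1 week HP minus NP was 0.47 on LF and 0.62 on HF diets. At 12 weeks it was 1.48 on HF but -0.81 on LF diets. The overall difference was 0.44 (standard error 0.32, 95% interval -0.31 to 1.19, adjusted p = 0.739). It was 0.10 without the HF-HP and 0.83 without the LF-HP pool of 12 weeks. The protein by fat interaction was 1.21 (standard error 0.50, unadjusted p = 0.0467, adjusted p = 0.706). Leaving out the LF-HP or the HF-HP pool of 12 weeks gave 0.58 and 0.72, and leaving out LF-HP at 1 week gave 1.85.

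Igfbp2, which is also repressed by insulin and is raised by leptin, was higher in the HP pool in 4 of 4 matched comparisons. The NP pools read 10.36 (LF, 1 week), 10.43 (HF, 1 week), 10.39 (LF, 12 weeks) and 9.83 (HF, 12 weeks), and the HP pools 10.39, 10.60, 10.45 and 10.64. The HF-NP pool of 12 weeks stood below the other pools, and the remaining HP and NP pools overlapped. The difference was 0.27 (standard error 0.14, 95% interval -0.06 to 0.59, adjusted p = 0.607), and 0.09 without that pool. The same HF-NP pool of 12 weeks was the lowest of all 9 for Igfbp1, Igfbp2 and the brighter Socs2 probe set and the highest for Ghr.

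Igfbp3, the main IGF carrier of plasma, is made in liver mostly outside hepatocytes. Its NP pools lay between 7.27 and 7.43 and its HP pools at 7.26, 7.62, 7.62 and 7.60, the low value being the LF-HP pool of 1 week. The difference was 0.17 (standard error 0.10, 95% interval -0.05 to 0.39, adjusted p = 0.643). All 6 endothelial markers lay above the median signal. Their summed linear signal ran from 2686 to 3546 in HP and from 2638 to 3445 in NP pools. It was lowest in the reference pool, at 2494. The part of these markers in the Igfbp3 values was not tested. Igfbp4, which binds IGFs and keeps them from their receptor, ran from 12.19 to 12.31 over all pools, with an HP minus NP difference of -0.02 (standard error 0.05, 95% interval -0.15 to 0.10, adjusted p = 0.941).

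Duration of the diet was compared in the same fit. Pools of 1 week were labelled as 13 and those of 12 weeks as 22 weeks of age, so duration and age cannot be told apart. None of the members passed between 12 weeks and 1 week (limma, smallest adjusted p = 0.576), where 0.00502% of all genes did. An unadjusted p under 0.05 was found for 2 members, Socs2 by the brighter probe set and Igfbp1, against 7.71% of all genes. Socs2 was lower at 12 weeks on 4 of 4 diets, with differences of -0.81 on LF-NP, -1.22 on HF-NP, -0.35 on LF-HP and -1.09 on HF-HP by the brighter probe set. The estimate was -0.87 (standard error 0.28, 95% interval -1.52 to -0.22, unadjusted p = 0.0150, adjusted p = 0.576), and the groups overlapped through the LF-NP pool of 12 weeks at 8.49. By the dimmer probe set the estimate was -0.41 (adjusted p = 0.583). Igfbp1 was also lower at 12 weeks on 4 of 4 diets, with -0.46, -0.91, -1.74 and -0.05 in the same order, with an estimate of -0.79 (standard error 0.32, 95% interval -1.55 to -0.04, unadjusted p = 0.0411, adjusted p = 0.621). It was -0.40 without the LF-HP pool of 12 weeks. Igf1 differed by 0.00 (standard error 0.06, 95% interval -0.13 to 0.14) between the times.

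For fat, 0 of the 10 members passed (limma, adjusted p = 0.999 for each of them), as did 0% of all genes. For the protein by fat interaction 0 members passed and 2, Socs2 by the brighter probe set and Igfbp1, had an unadjusted p under 0.05, where 0% and 7.02% of all genes did. For the protein by week and fat by week interactions 0 members passed or had an unadjusted p under 0.05, where 2.62% and 2.23% of all genes had one.

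Against the single reference pool no test is possible, and all 8 diet pools share it. Igfbp1 was below the reference by more than 1.5-fold in 7 of the 8 diet pools, the exception being LF-HP at 1 week. The log2 differences ran from -0.54 there to -2.46 in the HF-NP pool of 12 weeks. That includes the LF-NP pools, whose diet had not changed and which differed by -1.02 at 1 week and -1.48 at 12 weeks. Cish was below by more than 1.5-fold in 4 pools and Socs2 in 3 by the brighter probe set and in 0 by the dimmer one, whose lowest difference was -0.52, and no member was above by that much in any pool. The share of all genes past 1.5-fold in either direction was, at 1 week, 0.652% and 0.597% in the LF and HF pools on NP and 1.35% and 2.04% in those on HP. At 12 weeks it was 1.49% and 1.57% on NP and 2.32% and 3.04% on HP. Igf1, Ghr and Igfbp4 stayed within 0.17, 0.16 and 0.08 of the reference in every pool.

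Correlations over the 9 pools were computed for 6 pairs of members with known links, by exact two-sided permutation tests. Socs2 and Cish had Pearson's r = 0.62 (exact permutation p = 0.0721, adjusted over the 6 pairs 0.433) and Spearman's rho = 0.67 (exact permutation p = 0.0589, adjusted 0.177). Without the LF-NP pool of 1 week and the HF-NP pool of 12 weeks, the farthest from the median of Socs2, r was 0.31. Leaving out the extreme pools also narrows the range, so the lower r cannot show whether the relation rests on them. With the dimmer Socs2 probe set r over the 9 pools was 0.53 for Cish and -0.30 for Igf1. Igf1 had r = 0.38 with Igfals (exact permutation p = 0.265), -0.09 with Ghr (p = 0.814), -0.04 with the brighter Socs2 probe set (p = 0.905) and -0.08 with Igfbp1 (p = 0.845). The rho values were 0.68 (p = 0.0515), -0.39 (p = 0.306), -0.07 (p = 0.874) and 0.32 (p = 0.403). Without the LF-HP pools of 1 and 12 weeks, r became 0.14, -0.77, 0.39 and 0.63. Igfbp1 and Igfbp2 had r = 0.37 (exact permutation p = 0.327) and rho = 0.12 (p = 0.776), and r = -0.38 without the LF-HP and HF-NP pools of 12 weeks. No pair passed after adjustment over the 6 pairs, and each week holds 4 diet pools, too few for a value within it.

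The genes most like a member were sought among the 2763 genes above the median level with a span of at least 0.5, by Pearson's r over the 9 pools. These values are descriptions of a search over many genes and carry no test. Igfbp1 was followed most closely by Cebpb, a transcription factor of the acute and fasting responses (r = 0.95), Itgb3 (0.95) and Mosmo (0.92). Cish was closest to Rgs3 (0.94), the proto-oncogene Myc (0.91) and Arid5b (0.87), and the brighter Socs2 probe set to Tram2 (0.92), Zfp609 (0.91) and Bbs2 (0.90). Stat5b was closest to Tap1, a peptide transporter of antigen presentation (0.95), Abca8a (0.94) and Blvrb (0.94). The closest gene was Cdcp1 for Igf1 (0.88), Bod1 for Igfals (0.90), Pdcd4 for Ghr (0.95), Pigb for Igfbp2 (0.96), Stard4 for Igfbp3 (0.93) and Homer2 for Igfbp4 (0.93).

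Other genes of the axis were taken from 7 lists with 89 entries, of which 76 had a value. None passed between HP and NP pools (limma), and 12 of them, 15.8%, had an unadjusted p under 0.05, against 10.3% of all genes. Of 10 ligands and receptors 0 had an unadjusted p under 0.05, and the largest differences were 0.14 for Igf2r and 0.11 for Ghrl (ghrelin). Signals of Igf2r and Ghrl lay at percentiles 83 and 52 of all genes. Of 11 genes of the signal relay 9 had a negative difference (median -0.08), led by Stat5a at -0.25 and the insulin receptor substrate Irs1 at -0.14. Of 13 inhibitors of the signal 8 were negative (median -0.03), with -0.21 for Grb14, an adaptor that blocks the insulin receptor, and -0.10 for Socs1. The 9 other binding proteins and proteases had a median of 0.01, with 0.28 (standard error 0.32) for the protease gene Htra1 and -0.10 for Pappa2. Signals of Htra1 and Pappa2 were low, at percentiles 42 and 21 of all genes. Among 9 transcription factors (median -0.03), Bcl6, a repressor that competes with STAT5 for its sites, gave -0.79 (standard error 0.26, adjusted p = 0.336). Onecut1, a liver factor induced by growth hormone, gave 0.63 (standard error 0.33, adjusted p = 0.607).

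The last lists hold genes that growth hormone sets differently in male and female liver. Of 14 male-biased targets 11 had a negative HP minus NP difference and 5 an unadjusted p under 0.05, with a median of -0.13. Hsd3b5, a steroid dehydrogenase of male liver, differed by -0.97 (standard error 0.18, adjusted p = 0.0975), from a mean of 10.70 in NP to 9.74 in HP pools. It passed with arrays centred on their medians (limma, adjusted p = 0.0459) and among genes above the median level (0.0342). It also passed without the LF-HP pool of 12 weeks (0.0364). In the other alternative fits, among them array weights, matched blocks and every other pool left out, it stayed above 0.05. Selenbp2, a selenium-binding protein, differed by -0.65 (standard error 0.13, adjusted p = 0.118), and passed only among genes above the median level (0.0448). Differences were positive for 8 of 10 female-biased genes (median 0.17). Both sex-biased lists were chosen with earlier results of these data known, so their medians are descriptions and no independent test. Sult3a1, Cyp2b13, Sult1e1, Cyp3a16 and A1bg had low signals, at percentiles 1.3, 6.4, 6.4, 7.0 and 16 of all genes. All of these but Sult3a1 were among the positive ones. An unadjusted p under 0.05 (limma) was found for 3 of the 10 female-biased genes, against 10.3% of all genes. Of the 3, Cyp2b10 was positive. Cyp3a44 and Sult3a1, named after their values were seen, were negative at -0.39 (adjusted p = 0.239) and -0.21 (adjusted p = 0.448). Cyp2b10, a drug-inducible cytochrome P450, differed by 1.24 (standard error 0.40, adjusted p = 0.322) and Cyp17a1, a steroid hydroxylase, by 0.77 (standard error 0.33, adjusted p = 0.490). Several of these genes belong to families of near-identical copies, for which array probes may not separate the members.

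**Figure D4:**
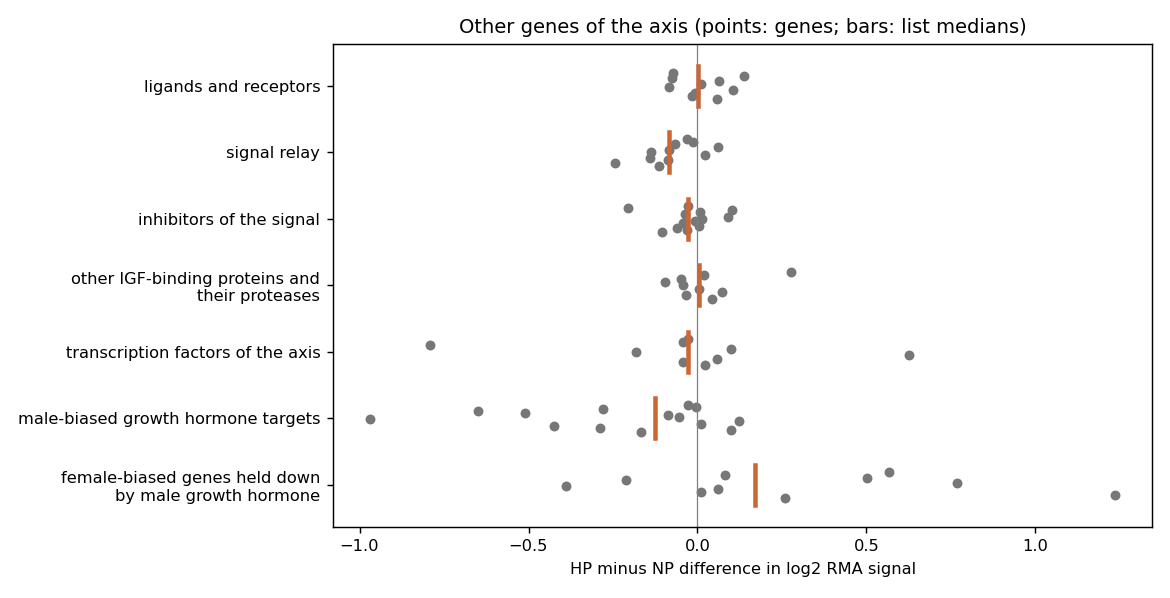
The 76 other genes of the axis by their HP minus NP difference (horizontal axis, log2 RMA signal), with 1 point per gene and bars at the list medians. The medians lie at -0.13 for male-biased and 0.17 for female-biased growth hormone targets and between -0.08 and 0.01 for the other lists. The lists were chosen with earlier results of these data known.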

How the data were processed

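Each of 9 Affymetrix Mouse Gene 1.0 ST arrays was hybridised with a pool of liver RNA from 5 mice. The authors computed the deposited log2 values with RMA, which corrects background, normalises quantiles and summarises probe sets (per the labels and the methods). The deposited table uses the array's own probe sets, not the regrouped ones of the methods. Of 35556 probe sets, 21789 have 1 symbol, 1621 several and 12146 none in the annotation. The probe set with the highest mean was kept for each of 19938 genes, with no filter on the level. HP and NP, HF and LF, and 12 and 1 week pools were compared with limma 3.58.1 (R 4.3.3), in a model of the 8 diet pools that held additive effects of protein, fat and week. Each interaction was added to this model in turn. The Benjamini-Hochberg adjustment ran over all genes, and the threshold was 0.05. The fit was tested on simulated data. The reference pool entered no fit. The number of arrays limits the precision, and p-values measure the spread between pools.

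Of the related lists, genes past the test (at most 4) or else the 2 largest differences are named, and for each member its most alike genes. The check of the neighbouring probe set numbers was added after seeing the data. The members and lists were chosen with earlier results of these data known. Python 3.11.15, pandas 2.3.3, NumPy 2.4.6, SciPy 1.17.1 and matplotlib 3.10.9 were used. Alternatives were a fit without covariates, an intensity trend, array weights, centred arrays, a filter on low values, mean probe sets, matched blocks, each pool left out and a threshold of 0.1.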

Additional observations from a re-analysis of the deposited data

Results flagged for a closer look

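In 6 of 60 sets of 4 pools (10 members, pools grouped by protein, fat or week), the highest or lowest pool stood apart from the others by Dixon's test at the 95% level, where chance gives about 1 in 20. Among HP pools these were the HF-HP pool of 1 week for Igfals (9.02, next 9.37) and for Stat5b (8.32, next 8.39), the LF-HP pool of 12 weeks for Ghr (12.04, next 11.86) and the LF-HP pool of 1 week for Igfbp3 (7.26, next 7.60). Among NP pools it was the HF-NP pool of 12 weeks for Igfbp2 (9.83, next 10.36). Among the pools of 1 week it was again the HF-HP pool for Igfals (9.02, next 9.33). The pools of a set differed in diet or week, and each pool of a gene entered sets for protein, fat and week. The rate of 1 in 20 holds for independent sets of like pools, so 6 of 60 cannot be read against it.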

How the results depend on the processing

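No member was called in any comparison under any alternative run, over 780 fits of a member (smallest adjusted p = 0.184, for Stat5b among genes above the median level). All genes called between HP and NP, 88 here, were 140 with array weights, 152 with centred arrays, 219 among genes above the median level, 39 with HP and NP pools of the same fat level and week paired as blocks, 208 at a threshold of 0.1 and 1 to 36 with 1 pool left out. The 1 gene called for week was lost without covariates (0), and its count ran from 0 to 1 with 1 pool left out. Related genes called, 0 here, were 1 with centred arrays (Hsd3b5), 2 among genes above the median level (Hsd3b5 and Selenbp2), 1 at a threshold of 0.1 (Hsd3b5) and 0 to 1 with 1 pool left out. The labels give no replicate numbers. The number of arrays limits the precision.

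Signs of members turned as follows, in no case for a called difference. With array weights, HP minus NP was -0.0336 for Igfals and -0.0811 for Socs2, HF minus LF was 0.0158 for Ghr, and 12 weeks minus 1 week was 0.0197 for Cish. With centred arrays, HP minus NP was -0.0026 for Igfals, 12 weeks minus 1 week was -0.0026 for Igf1, and the interactions were -0.0039 for Igfbp4 (protein by fat), 0.0067 for Ghr (protein by week) and 0.0261 for Igf1 (fat by week), while the r of Igf1 with Igfbp1 was 0.0874. HP minus NP of Socs2 was -0.0379 with mean probe sets. By the dimmer Socs2 probe set, an alternative added after seeing the data, it was -0.139, and the fat by week interaction was 0.0155.

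With 1 pool left out, HP minus NP ran from -0.0638 to 0.0991 for Igfals, -0.19 to 0.36 for Socs2 and -0.13 to 0.61 for Cish. HF minus LF ran from -0.16 to 0.003 for Igfals, -0.0386 to 0.0351 for Ghr, -0.54 to 0.0874 for Igfbp1, -0.12 to 0.16 for Igfbp2 and -0.0244 to 0.15 for Igfbp3. The weeks differed by -0.43 to 0.32 for Cish, -0.0317 to 0.0345 for Igf1, -0.0505 to 0.11 for Igfals, -0.22 to 0.0554 for Igfbp2 and -0.0917 to 0.082 for Igfbp3. The protein by fat interaction, left out in the same way after seeing the data, ran from -0.35 to 0.0834 for Igfals, -0.0503 to 0.41 for Igfbp3 and -0.0447 to 0.0646 for Igfbp4. The causes were not tested.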
